A study of Mus musculus with 4 samples.

Results

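Collagens, laminins and integrins are described here in tumour cells sorted from the lungs of reporter mice. A gene was included when its symbol was that of a collagen chain (Col, number, a, number), a laminin α, β or γ chain (Lama, Lamb, Lamc) or an integrin α or β subunit (Itga, Itgb). The integrin-like gene Itgbl1 was not counted as an integrin. The rule used names only, and it took 38 of the 17746 genes in the authors' table: 13 collagens, 6 laminins and 19 integrins. The integrins were read as 7 leukocyte integrins, 4 epithelial integrins and 8 others.

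The mice carried a GFP-LC3-RFP-LC3ΔG knock-in, an autophagy probe that is cut into a GFP-LC3 part, which autophagy degrades, and an RFP part, which stays in the cytosol. They were crossed with Rb1 fl/fl; Trp53 fl/fl mice, whose tumours resemble human small cell lung cancer, so every library shares the probe and both floxed alleles. Tumours were dissociated, red blood cells were removed, and live cells (DAPI-negative) that were positive for EpCAM, a surface protein of epithelial cells, and for RFP were sorted by GFP into a positive and a negative fraction, each sequenced as 2 libraries. Sample titles and the series' design text disagree on which fraction has high autophagic flux (GFP-positive in the titles, GFP-negative in the text), so the groups are named by GFP alone. The sources used here do not give the age of the mice, how recombination was induced or whether the libraries came from separate animals. The p-values therefore measure only the spread between these libraries, which may be technical.

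Collagens are triple helices of α chains: fibrillar types form the fibres of connective tissue and type IV forms the network of basement membranes. Laminins are trimers of an α, a β and a γ chain, and epithelial cells rest on them. Integrins are αβ pairs that bind these proteins or other cells. In most tissues fibroblasts are the main source of fibrillar collagen, the β2 and β7 integrins belong to leukocytes, and α6β4 and α3β1 hold epithelial cells to laminin.

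Libraries held 51994432 to 73997175 counts. GFP-positive replicate 1 stood apart: 6063 of 17746 genes had counts there, against 15710 to 17617 in the other libraries. Levels are given as CPM or as the authors' FPKM. CPM are counts scaled to the library total and by TMM (a factor per library that sets aside the genes that differ most). FPKM divides by gene length and alone allows genes to be compared with each other. It was used as deposited, without these TMM factors, so libraries stand on another scale than in CPM. The integrin Itgb1 was at 282 CPM in GFP-positive replicate 1 and 307 CPM in GFP-negative replicate 1, but at 44.7 and 102 FPKM. Values of a group stand in the order replicate 1, replicate 2, and each group is called the GFP-positive or the GFP-negative pair, with no matching between the groups. The limit of 3 counts was 0.0264 to 0.080 CPM by library. Changes are log2 values from edgeR, GFP-negative minus GFP-positive, with the standard error of the fit and n = 2 libraries in each group. The labelled cell type was checked on its markers: Epcam was at 94.0 and 65.9 CPM in the GFP-positive pair versus 255 and 88.9 CPM in the GFP-negative pair. The neuroendocrine granule gene Chga was at 0 and 156 CPM in the GFP-positive pair versus 494 and 94.1 CPM in the GFP-negative pair. The 8 neuroendocrine markers summed to 3205 and 1071 CPM in the GFP-positive pair versus 4316 and 1296 CPM in the GFP-negative pair. In GFP-positive replicate 1, Calca made up most of that sum, at 3073 CPM. Markers of other cells were also present, with summed macrophage markers (13 genes) at 114279 and 61489 CPM in the GFP-positive pair versus 1131 and 19460 CPM in the GFP-negative pair. Hepatocyte markers summed to 27262 CPM in GFP-positive replicate 1 and to at most 319 CPM in any other library.

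All 38 genes passed the filter on low counts. None passed the test: edgeR's quasi-likelihood test called 0 of 38 at an adjusted p under 0.05, with every adjusted p at 1.0, while 16 of 16301 genes in the whole table were called (0.0982%). At an unadjusted p under 0.05 there were 2, Itgb2 and Col13a1, where the table as a whole held 3.1%. For 4 genes, the integrins Itgb2, Itgb7, Itgam and Itgb5, the groups did not overlap and the GFP-negative pair was lower. The share of all tested genes in that direction was 6.63%. The 7 genes that lay above in both GFP-negative libraries were Col1a2, Col13a1, Col22a1, Lamc1, Itga6, Itgb8 and Itga2b, and 25.2% of all tested genes did so. By FPKM, 3 remained lower (Itgb2, Itgb7 and Itgb5, background 4.53%) and the same 7 were higher (background 31.6%).

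GFP-positive replicate 1 bears on most of these values. It held no count for 30 of the 38 genes (64.4% of all tested genes were at 0 there), while 4 were at 0 in GFP-positive replicate 2, none in the GFP-negative library numbered 1 and 11 in that numbered 2. Only Col3a1, Col8a1, Itgam, Itgb1, Itgb2 and Itgb5 had counts in all 4 libraries. In a comparison added after seeing the data, with that library left out, both GFP-negative libraries lay below GFP-positive replicate 2 for 19 of the 38 genes (50%) and above it for 7 (18.4%), where all tested genes gave 27.9% and 28.9%. The 19 were 6 of the 7 leukocyte integrins, the other integrins Itgb5, Itga5, Itga9, Itgav and Itga10, the epithelial integrin Itgb4, and matrix genes. The matrix genes were Col1a1, Col3a1, Col4a1, Col4a2, Col7a1, Col11a1 and Lama4. The count of 19 is by CPM, and not all of them were lower by FPKM. In FPKM, GFP-negative replicate 1 lay above GFP-positive replicate 2 for Itgam (2.33 against 1.44) and Col4a1 (1.02 against 0.741). The same held for Itgal, Itga4, Itga5, Itga10, Col3a1, Col4a2 and Col11a1. The comparison rests on a single GFP-positive library and has no replicate check in that group. With GFP-positive replicate 2 left out, edgeR called 12 of the 38 genes, while it called 45.2% of all tested genes. Of the 12, 9 were higher and all of those were at 0 in the remaining GFP-positive library, and 3 were lower (Itgb2, Itgb7 and Itgb5).

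**Figure D1:**
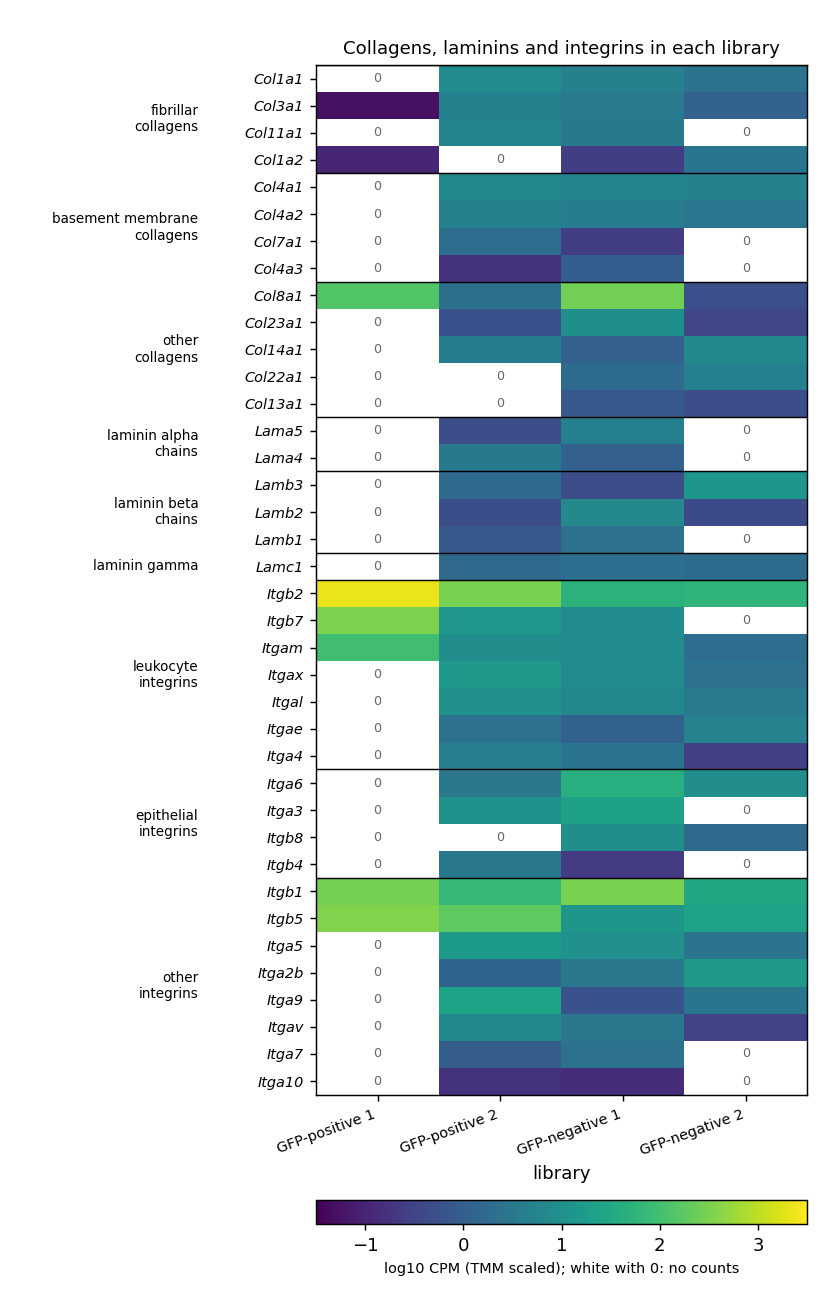
Level of each of the 38 genes (rows, by role) in each of the 4 libraries (columns), coloured by log10 CPM, with white cells marked 0 for no counts. The first column, GFP-positive replicate 1, is white for 30 of the 38 genes, and Itgb2, Itgb5, Itgb7, Itgb1 and Col8a1 are its highest levels.

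Matrix genes were low. Summed FPKM over all collagens and laminins was 11.3 and 4.81 in the GFP-positive pair versus 57.7 and 4.95 in the GFP-negative pair. A single gene, Col8a1, made up 99.9% and 82.9% of that sum in GFP-positive and GFP-negative replicate 1. Without it, matrix FPKM was 0.008 and 4.59 in the GFP-positive pair versus 9.89 and 4.89 in the GFP-negative pair. GFP-positive replicate 1 was then almost without matrix counts.

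Col1a1 and Col1a2 encode the α1 and α2 chains of type I collagen, the main fibre of connective tissue. Col1a1 was at 0 and 8.24 CPM in the GFP-positive pair versus 4.78 and 2.57 CPM in the GFP-negative pair, so the groups overlapped. Col1a2 was at 0.107 CPM (4 counts) and 0 CPM in the GFP-positive pair versus 0.273 and 2.76 CPM in the GFP-negative pair, a log2 change of 4.82 ± 3.97. Its groups did not overlap, but the fitted change was not much larger than its error. The balance of the chains differed between libraries. Col1a1 took 525 of 525 counts of the pair in GFP-positive replicate 2 (100%, 95% exact Clopper-Pearson interval 99.3 to 100%), 94.6% (92.4 to 96.3%) in GFP-negative replicate 1 and 48.2% (42.9 to 53.5%) in GFP-negative replicate 2. These intervals cover counting error only, and amplified reads without molecular identifiers are not independent molecules.

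The other fibrillar chains overlapped between groups. Col3a1, the type III chain of elastic tissues, was at 0.0533 and 4.97 CPM in the GFP-positive pair versus 3.89 and 1.19 CPM in the GFP-negative pair (log2 change 0.01 ± 4.19). Col11a1, a minor chain that nucleates fibrils, was at 0 and 5.41 CPM against 3.25 and 0 CPM, with a zero in each group. Fibroblast markers, like Col1a1 and Col11a1, were at 0 in GFP-positive replicate 1: the list (5 of 9 symbols in the table) summed to 0 and 145 CPM in the GFP-positive pair versus 62.6 and 133 CPM in the GFP-negative pair, and the defining marker Dcn was at 0, 58.6, 12.7 and 57.2 CPM in that order. Their part in the collagen values was not tested. In such bulk samples, fewer cells of a type and less RNA per cell cannot be told apart.

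Type IV collagen is the network of basement membranes, and its α1 and α2 chains are encoded head to head on chromosome 8. In the mm10 annotation (GENCODE M21), Col4a1 lies on the minus strand at chr8:11198423-11312826 and Col4a2 on the plus strand at chr8:11312805-11449287, and the gene models share 22 bases at their starts.

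The 2 chains had similar FPKM in each library with counts. Col4a1 was at 0 and 6.87 CPM in the GFP-positive pair versus 5.67 and 4.79 CPM in the GFP-negative pair, and its log2 change was 0.61 ± 4.44. Col4a2 was at 0 and 5.02 CPM against 4.18 and 2.93 CPM, with a change of 0.50 ± 4.31. Both groups overlapped for each gene, and both changes turned below 0 without GFP-positive replicate 1 (-0.40 and -0.50). Col4a1 took 57.8% (54.2 to 61.3%) of the pair's counts in GFP-positive replicate 2, 57.6% (54.6 to 60.5%) in GFP-negative replicate 1 and 62.1% (57.7 to 66.3%) in GFP-negative replicate 2. These shares lie close together, unlike those of the type I pair, although the FPKM ratio of Col4a1 to Col4a2 was 1.21, 1.20 and 1.45 in the same order. The antisense overlap of the gene models is short, and the kit as described does not mark strand, so reads in it cannot be assigned to either gene.

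**Figure D2:**
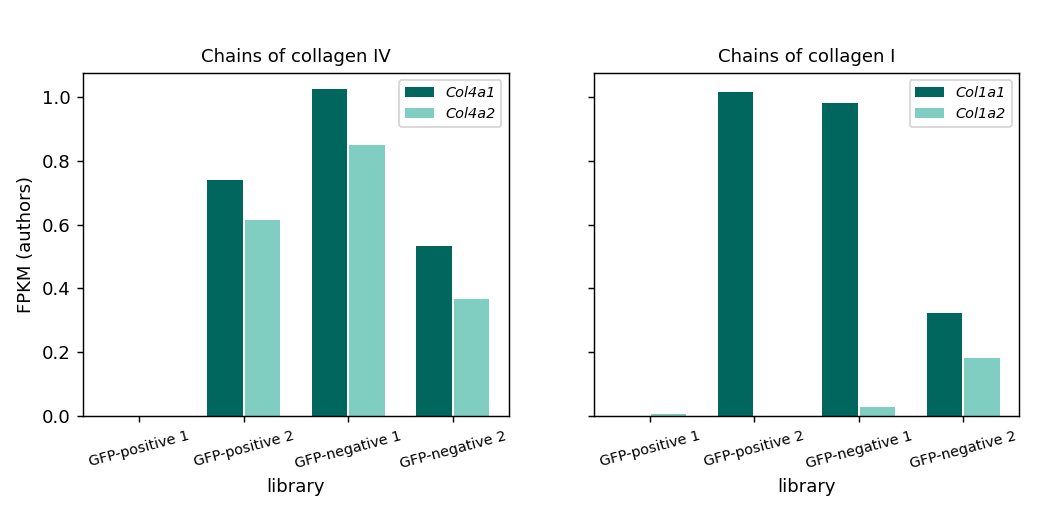
The authors' FPKM of the type IV chains Col4a1 and Col4a2 (left) and the type I chains Col1a1 and Col1a2 (right) in each library, 1 bar per gene and library, with no replicate error. The bars of Col4a1 and Col4a2 keep an FPKM ratio of 1.20 to 1.45 in the 3 libraries with counts, while Col1a2 is at 0 in GFP-positive replicate 2 and at 0.183 FPKM in GFP-negative replicate 2.

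Of the other basement membrane collagens, Col7a1, whose protein anchors the basement membrane to the tissue below, was at 0 and 1.98 CPM in the GFP-positive pair versus 0.264 and 0 CPM in the GFP-negative pair (log2 change -2.88 ± 3.32). Col4a3, a chain of the basement membranes of kidney and lung alveoli, was at 0 and 0.173 CPM against 0.978 and 0 CPM. Each group held a zero for both genes.

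Among the remaining collagens, Col8a1 had the highest mean FPKM of the matrix genes and was high in the replicates numbered 1 only. In the replicates numbered 2 it held 4.69% and 1.12% of matrix FPKM. This short-chain collagen of vessel walls was at 137 and 2.18 CPM in the GFP-positive pair versus 277 and 0.526 CPM in the GFP-negative pair. The fitted change of 1.0 ± 2.62 ran from -7.04 to 5.98 when single libraries were left out. Endothelial markers (6 of 9 in the table) summed to 396 and 20.7 CPM against 106 and 71.8 CPM. Pecam1 held nearly all of the 396 CPM and Vwf 86.9 of the 106 CPM, while Kdr, Emcn, Cldn5 and Egfl7 were higher in GFP-negative replicate 2 than in replicate 1. Their part in the Col8a1 value was not tested. Col23a1, a transmembrane collagen, was at 0 and 0.565 CPM against 9.75 and 0.3604 CPM. Col14a1, which binds to fibrils, was at 0 and 4.05 CPM against 1.06 and 7.81 CPM. For both, the groups overlapped.

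Col22a1 and Col13a1 had no count in the GFP-positive pair. Col22a1, a collagen of tissue junctions, was at 1.77 and 4.49 CPM in GFP-negative replicates 1 and 2. Their mean was 49.3-fold above the mean limit of 3 counts in the GFP-positive libraries. Such a fold is not a lower bound, since GFP-positive replicate 1 was at 0 for 64.4% of all tested genes. Col13a1, a transmembrane collagen, was at 0.758 and 0.481 CPM, with a mean 9.75-fold above that limit. It had an unadjusted p of 0.0277 and an adjusted p of 1.0 in edgeR's quasi-likelihood test. These are the 2 collagens with counts in the GFP-negative libraries only. Col13a1 rested on 86 and 32 counts.

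Collagens had a median log2 change of 1.0 (10 of 13 above 0), beside 0.91 for all tested genes, of which 68.1% were above 0. Without GFP-positive replicate 1 the medians were 0.13 and 0.29. The collagen median was near that of the table in both cases.

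All 6 laminin genes were at 0 counts in GFP-positive replicate 1. Lamc1, the γ1 chain found in most laminins, was at 1.69 CPM in GFP-positive replicate 2 and at 2.11 and 1.83 CPM in GFP-negative replicates 1 and 2. The difference between those 3 libraries was small, and the log2 change was 1.22 ± 3.86. Lamb2, the β2 chain, was at 0 and 0.502 CPM in the GFP-positive pair versus 7.04 and 0.421 CPM in the GFP-negative pair (log2 change 3.88 ± 4.55). Lama5, the α chain of most epithelial basement membranes, was at 0 and 0.471 CPM against 4.63 and 0 CPM. For these, GFP-negative replicate 1 was the high library.

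The other laminin chains varied in which library was highest. Lamb3, the β3 chain of the epithelial anchoring laminin, was at 0 and 1.60 CPM in the GFP-positive pair versus 0.485 and 13.4 CPM in the GFP-negative pair (log2 change 3.11 ± 4.75). Its gene overlaps Hsd11b1 and G0s2 on the other strand, and they held 4271 and 12955 counts in GFP-positive replicate 1, where Lamb3 held 0. The sum of basal epithelial markers (3 of 4 in the table) was also highest in GFP-negative replicate 2. It was 0.506 and 31.2 CPM in the GFP-positive pair versus 3.10 and 73.9 CPM in the GFP-negative pair. Krt15 held all of the 31.2 CPM and 67.2 of the 73.9 CPM. Krt14 was also highest in GFP-negative replicate 2, while Krt5 was highest in GFP-negative replicate 1. The part of these markers in the Lamb3 value was not tested. Lama4, the α chain of vessel basement membranes, was at 0 and 3.36 CPM against 1.06 and 0 CPM (log2 change -1.66 ± 3.72). Lamb1, the β1 chain, was at 0 and 0.831 CPM against 2.44 and 0 CPM, with GFP-negative replicate 1 the high library. The table's symbols did not include Lama3, the α3 chain. The laminin median was 2.33 (5 of 6 above 0), 1.33 without GFP-positive replicate 1, and it was -3.00 without GFP-negative replicate 1.

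**Figure D3:**
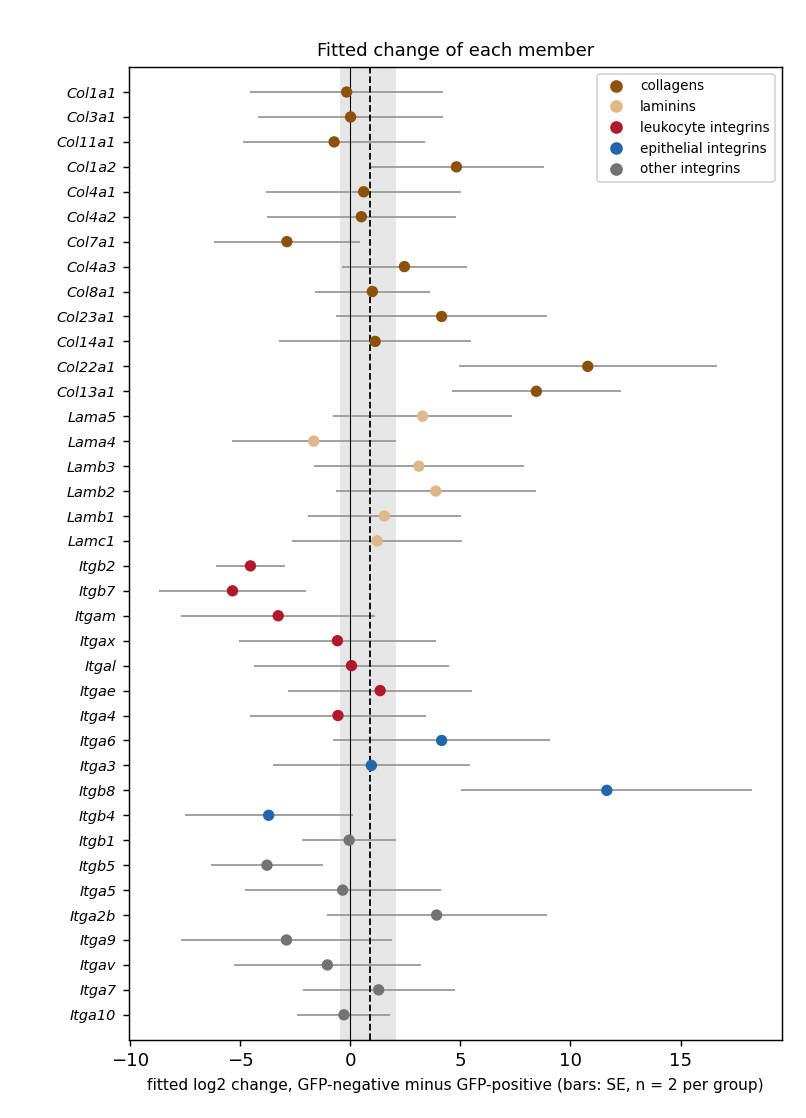
Fitted log2 change of each of the 38 genes, GFP-negative minus GFP-positive, with bars of 1 standard error (n = 2 libraries in each group) and colours by family. The dashed line and grey band give the median (0.91) and the middle range (quartiles -0.43 to 2.03) of all tested genes. Itgb2, at -4.54 ± 1.56, has the smallest error relative to its change; the values of Col13a1, Col22a1 and Itgb8 depend on the prior count, since the GFP-positive pair held no count.

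Leukocyte integrins were led by Itgb2. It encodes the β2 subunit (CD18), which pairs with α chains including αL, αM and αX on leukocytes (mm10 chr10:77530252-77565708). Itgb2 was at 2271 and 306 CPM in the GFP-positive pair versus 51.5 and 59.6 CPM in the GFP-negative pair. The groups did not overlap. The GFP-negative values were close to each other, and GFP-positive replicate 1 was far above replicate 2. The log2 change was -4.54 ± 1.56, with an unadjusted p of 0.00364 and an adjusted p of 1.0 in edgeR's quasi-likelihood test. It kept its direction in 12 of 12 alternatives, though groups that do not overlap leave little room for a reversal. The change was -2.47 without GFP-positive replicate 1.

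Its α partners were far lower per length. Itgam, the αM subunit (CD11b) of myeloid cells, was at 93.9 and 8.96 CPM in the GFP-positive pair versus 8.65 and 1.97 CPM in the GFP-negative pair, with a change of -3.27 ± 4.39. The groups were separate by a narrow margin in CPM and overlapped in FPKM, where GFP-negative replicate 1 (2.33) was above GFP-positive replicate 2 (1.44). The change was -0.76 without GFP-positive replicate 1. Itgax, the αX subunit (CD11c) of dendritic cells and lung macrophages, was at 0 and 16.1 CPM against 8.30 and 2.43 CPM. Itgal, the αL subunit of lymphocytes and other leukocytes, was at 0 and 10.2 CPM against 6.85 and 3.69 CPM. Summed over these 3 α genes, FPKM was 39.8-fold and 15.04-fold below Itgb2 in GFP-positive replicates 1 and 2, and 3.76-fold and 13.4-fold below it in GFP-negative replicates 1 and 2.

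Itgb7 encodes the β7 subunit, which pairs with α4 or αE on lymphocytes and some myeloid cells. It was at 319.6 and 14.8 CPM in the GFP-positive pair versus 8.19 and 0 CPM in the GFP-negative pair. The groups did not overlap, but GFP-positive replicate 1 alone was far above the rest, and the change of -5.35 ± 3.35 was -1.86 without it. Its α partners Itga4 and Itgae were at 0 counts in that library. Summed leukocyte integrin CPM was 2684 and 363 in the GFP-positive pair versus 87.3 and 73.2 in the GFP-negative pair. Pan-leukocyte markers (5 of 5 in the table) were also higher in the GFP-positive libraries by their sum, at 4126 and 3250 CPM against 198 and 688 CPM. Of the 5, 4 were lower in the GFP-negative pair without overlap, where all tested genes gave 6.63%. The macrophage markers given above followed the same order, with 3 of 13 called (Lyz2, Chil3 and Ctss), where 0.0982% of all tested genes were called. Both marker sums were higher in GFP-negative replicate 2 than in replicate 1, unlike the summed leukocyte integrins. Ccr2 of the macrophage list was higher in the GFP-negative pair, at 0 and 8.35 CPM against 10.7 and 14.3 CPM. The pan-leukocyte gene Ptprc was at 0 and 79.9 CPM against 22.0 and 18.4 CPM. The part of these cells in the integrin values was not tested.

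**Figure D4:**
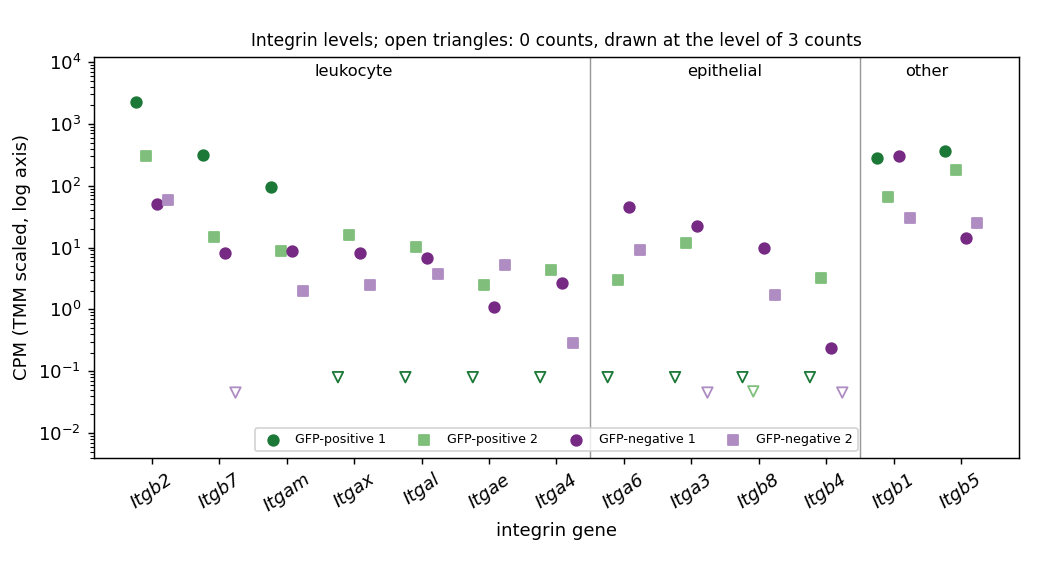
CPM of 13 integrin genes in each library on a log axis, with colour for the GFP group and shape for the replicate, and open triangles for 0 counts at the level of 3 counts. Both GFP-negative points lie below both GFP-positive points for Itgb2, Itgb7, Itgam and Itgb5, for Itgam by a narrow margin (8.65 below 8.96 CPM), and Itgb1 shows no such order.

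Epithelial integrins summed to 0 and 17.9 CPM in the GFP-positive pair versus 77.4 and 10.7 CPM in the GFP-negative pair, so the groups overlapped. Itga6 encodes α6, a laminin receptor of epithelial cells that pairs with β4 or β1. It was at 0 and 3.03 CPM in the GFP-positive pair versus 44.7 and 9.04 CPM in the GFP-negative pair, and the groups did not overlap (log2 change 4.15 ± 4.94). Itgb8, the β8 subunit that activates TGF-β, had no count in the GFP-positive pair and was at 9.70 and 1.70 CPM in the GFP-negative pair. Its GFP-negative mean was 89.7-fold above the mean limit of 3 counts in the GFP-positive libraries, which is not a lower bound for each library. Its unadjusted p in edgeR was 0.0777. Both genes were higher in GFP-negative replicate 1 than in replicate 2.

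For the other epithelial integrins the groups overlapped. Itgb4, the partner of α6 in the hemidesmosome, was at 0 and 3.17 CPM in the GFP-positive pair versus 0.238 and 0 CPM in the GFP-negative pair (log2 change -3.71 ± 3.81). Itga3, α3 of the laminin receptor α3β1, was at 0 and 11.7 CPM against 22.7 and 0 CPM. Each of them had a zero in both groups. Epithelial markers as a whole (7 of 7 in the table) summed to 1328 and 423 CPM in the GFP-positive pair versus 2957 and 781 CPM in the GFP-negative pair, so the sums overlapped. Krt8 and Krt18 made up most of each sum. Log2 changes were above 0 for 5 of the 7 and below 0 for Krt19 (-0.43) and Cldn7 (-1.61). The part of these markers in the integrin values was not tested.

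Of the other integrins, Itgb5 was the one that was lower in the GFP-negative pair without overlap. It encodes β5, which pairs with αV to bind vitronectin (chr16:33829665-33949338). Itgb5 was at 365 and 179 CPM in the GFP-positive pair versus 14.2 and 25.3 CPM in the GFP-negative pair. The groups did not overlap, also in FPKM (66.3 and 40.9 against 5.38 and 5.92). The change was -3.79 ± 2.56, unadjusted p 0.139 in edgeR, and it stayed between -4.21 and -3.19 when each library was left out in turn. Its partner Itgav was at 0 counts in GFP-positive replicate 1.

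Itgb1, the β1 subunit of most matrix receptors, was the contrast to Itgb5. It was at 282 and 66.7 CPM in the GFP-positive pair versus 307 and 29.7 CPM in the GFP-negative pair. The spread within each group exceeded the difference between them, and the change was -0.05 ± 2.14, of either sign by setting. Itga5, the fibronectin receptor α5, was at 0 and 16.8 CPM against 10.6 and 2.64 CPM. Itga2b, the αIIb subunit of platelets and megakaryocytes, was at 0 and 1.27 CPM against 3.15 and 16.2 CPM, with a change of 3.92 ± 4.997. Its groups did not overlap. Of the platelet markers (3 of 6 in the table, summing to 109 and 565 CPM in the GFP-positive pair versus 10.5 and 272 CPM in the GFP-negative pair), Pf4 made up nearly all of the sum. Ppbp had the same order of libraries as Itga2b, at 0 and 1.93 CPM against 2.79 and 9.01 CPM, and Gp1bb was at 0.107 and 1.99 CPM against 0.811 and 5.87 CPM. Their part in the Itga2b value was not tested. The subunits Itga7, Itga9, Itga10 and Itgav were at 0 counts in GFP-positive replicate 1 and overlapped between groups.

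Start regions are shown for 3 integrins whose values differ in pattern: Itgb5 (groups apart), Itgam (apart in CPM only) and Itgb1 (overlapping). Each is the 250 bases before the RefSeq start (GRCm38.p6), on the gene's strand. Capitals mark GC boxes (GGGCGG or CCGCCC) and, in Itgam, a PU.1-type core (GAGGAAG), a motif of myeloid promoters.
Itgb5, chr16:33829415-33829664 (+): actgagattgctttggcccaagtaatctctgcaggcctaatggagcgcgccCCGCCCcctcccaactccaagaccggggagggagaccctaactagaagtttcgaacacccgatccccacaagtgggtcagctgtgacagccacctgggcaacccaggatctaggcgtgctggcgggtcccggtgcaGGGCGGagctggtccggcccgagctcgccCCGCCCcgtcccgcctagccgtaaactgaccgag
Itgam, chr7:128062390-128062639 (+): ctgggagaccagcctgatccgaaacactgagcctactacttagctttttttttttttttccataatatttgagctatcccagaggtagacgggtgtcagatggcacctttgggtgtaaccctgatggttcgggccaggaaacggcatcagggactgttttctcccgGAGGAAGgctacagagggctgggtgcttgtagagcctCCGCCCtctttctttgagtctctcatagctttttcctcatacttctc
Itgb1, chr8:128685404-128685653 (+): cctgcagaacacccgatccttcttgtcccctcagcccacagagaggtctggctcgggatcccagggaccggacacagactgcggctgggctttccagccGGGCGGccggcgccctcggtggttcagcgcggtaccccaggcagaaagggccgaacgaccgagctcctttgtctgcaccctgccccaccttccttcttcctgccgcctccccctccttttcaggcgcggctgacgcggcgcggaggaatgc

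Itgb5 held 3 GC boxes, Itgam and Itgb1 held 1 each, and the PU.1-type core was found in Itgam of these 3. Of the 38 genes, 26 matched the table of start regions, with 28 windows. Over both strands, GAGGAAG or CTTCCTC was in 4 of 28 windows (14.3%; Itgam, Itga2b, Itgav and Lamb3) and in 10.6% of 32851 windows of the same length over all genes. GC boxes were in 15 of 28 (53.6%) and in 32.7%, CCAAT or ATTGG in 9 (32.1%) and in 33.8%, and TATAAA or TTTATA in 2 (7.14%) and in 12.4%. These are letter matches only.

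Leukocyte integrins made up 83.6% and 59.4% of all integrin FPKM in the GFP-positive pair versus 21.1% and 53.3% in the GFP-negative pair. The GFP-negative shares were below the GFP-positive ones, but GFP-negative replicate 2 lay close to GFP-positive replicate 2. Itgb2 alone was 70.9%, 52.6%, 14.4% and 47.0% in that order. Epithelial integrins were 0% and 1.49% in the GFP-positive pair versus 8.34% and 2.75% in the GFP-negative pair. Itgb1 was 64.2% in GFP-negative replicate 1 and 6.59 to 17.5% elsewhere. The total behind these shares also differed, at 678 and 154 FPKM in the GFP-positive pair versus 158 and 34.5 FPKM in the GFP-negative pair.

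**Figure D5:**
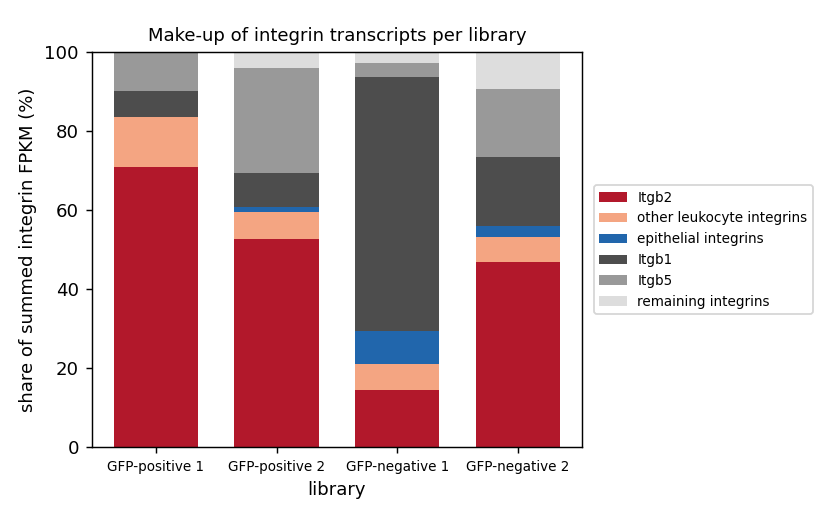
Share (%) of summed integrin FPKM in each library, stacked as Itgb2, other leukocyte integrins, epithelial integrins, Itgb1, Itgb5 and the remaining integrins. Leukocyte integrins hold 83.6% and 59.4% in the GFP-positive pair versus 21.1% and 53.3% in the GFP-negative pair, and the β subunits Itgb1 and Itgb5 fill most of the rest.

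Matrix and receptor genes together gave a further contrast. Collagens and laminins made up 1.63% and 3.02% of the FPKM of matrix and integrin genes in the GFP-positive pair versus 26.7% and 12.5% in the GFP-negative pair. Without Col8a1 the shares were 0.001% and 2.89% against 5.88% and 12.4%. The GFP-negative pair was above the GFP-positive pair either way. Between the replicates numbered 2 the matrix sum itself was close, at 4.81 against 4.95 FPKM, and the share differed with the integrin sum, at 154 against 34.5 FPKM. No test was run on this share, and with 2 libraries in each group an exact permutation test could not reach 0.05.

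By median log2 change, matrix genes were at 1.22 (15 of 19 above 0) and integrins at -0.35 (7 of 19 above 0), around 0.91 for all tested genes. Leukocyte integrins were at -0.58 (2 of 7 above 0), epithelial integrins at 2.55 (3 of 4) and other integrins at -0.32 (2 of 8). Without GFP-positive replicate 1, leukocyte integrins were at -1.57 and epithelial integrins at 1.54, beside 0.29 for all genes. Neither sign held throughout: the epithelial median was -3.45 without GFP-negative replicate 1, and the leukocyte median was 9.74 without GFP-positive replicate 2 and 2.45 with a replicate block. The difference between the classes was not tested, and none of their genes was called.

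The genes that make, bind and signal with these proteins gave 0 calls in each of 5 lists. Of the collagen processing enzymes, 15 of 23 were tested, with 7 changes above 0 and 8 below. P4hb, a subunit of the prolyl hydroxylase that stabilises the helix, was at 1153 and 365 CPM in the GFP-positive pair versus 578 and 152 CPM in the GFP-negative pair. Plod1, a lysyl hydroxylase, was at 316 and 70.3 CPM against 25.3 and 0.766 CPM, so its groups did not overlap. Matrix partners had 11 of 16 tested, 6 above and 5 below. Spp1 (osteopontin), an integrin ligand made by macrophages among others, was at 6725 and 1973 CPM against 23.4 and 2366 CPM, and GFP-negative replicate 1 was the low library. Tgfbi, a collagen- and integrin-binding protein, was at 758 and 87.5 CPM against 33.2 and 7.63 CPM.

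Integrin adaptors had 23 of 24 tested, with 13 above and 10 below 0. Fermt3 (kindlin-3), the adaptor that activates β integrins in blood cells, was at 1388 and 223 CPM in the GFP-positive pair versus 9.62 and 19.4 CPM in the GFP-negative pair. The order of the 4 libraries was that of Itgb2, with a change of -5.79 ± 1.98. Rap1b, a small GTPase upstream of integrin activation, was at 1529 and 673 CPM against 389 and 745 CPM and overlapped. Other matrix receptors had 8 of 10 tested, 4 above and 4 below: Lair1, an inhibitory collagen receptor of leukocytes, was at 312 and 208 CPM against 3.604 and 46.2 CPM, and Cd44, the hyaluronan receptor, at 354 and 40.0 CPM against 11.9 and 12.96 CPM. Counter-receptors of leukocyte integrins had 6 of 8 tested, 2 above and 4 below. Vcam1, the ligand of α4 integrins, was at 1115 and 480 CPM against 2.90 and 37.2 CPM. F11r, a junctional protein that binds αLβ2, was at 548 and 211 CPM against 185.5 and 65.8 CPM. In these 2, as in Lair1, Cd44, Fermt3, Plod1 and Tgfbi, the groups did not overlap and the GFP-negative pair was lower. These genes were taken by their mean CPM, which favours genes high in GFP-positive replicate 1. Over each list, the tested genes without overlap were 2 lower and 2 higher for collagen processing, 2 and 3 for matrix partners and 2 and 3 for adaptors. For the other matrix receptors they were 3 lower and 1 higher, and for counter-receptors 2 and 0, where all tested genes gave 6.63% lower and 25.2% higher. The higher ones included P4ha2, Bmp1, Eln, Fbn1, Parva, Ptk2 and Dag1. The summed pan-leukocyte and macrophage markers were in the same direction, and their part in these values was not tested.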

How the data were processed

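RNA from sorted cells was copied from an oligo(dT) primer, amplified by PCR after template switching (SMARTer) and sequenced in paired reads, per the labels' protocols. The kit as described marks no strand and no molecular identifiers are mentioned. The authors deposited 1 table of 17746 symbols with whole-number counts per library, per the file headers, and with FPKM values that the authors deposited beside them. cutadapt 1.9, HISAT2 2.2.1, StringTie 2.1.6, DESeq2 and edgeR and the build mm10 are named per the submitters' processing notes; which program made the counts is not given in the sources used here. All 17746 symbols had counts in at least 2 libraries, as the values show.

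Counts were tested with edgeR 4.0.16 in R 4.3.3 (filterByExpr with a minimum count of 10, 16301 genes kept; TMM factors 0.722 and 0.944, GFP-positive, 1.54 and 0.956, GFP-negative; group as the only term; glmQLFit and glmQLFTest; Benjamini-Hochberg threshold 0.05 over all genes tested). Standard errors are the absolute log2 change over the square root of F. The common biological coefficient of variation was 1.92. The scripts were tested on simulated data with a much lower dispersion and no library at 0 for most genes. That test does not show how the fits behave on these libraries. Alternatives were a replicate block, no filter, DESeq2 size factors, the DESeq2 1.42.0 Wald test, limma 3.58.1 on log2 FPKM (pseudocounts 1 and 0.1, filter of 0.1 FPKM in 2 libraries or none), genes with counts in all 4 libraries, and each library left out. A fold against a group at 0 divided the mean CPM of the other group by the mean CPM of 3 counts per library in the group at 0. It is not a lower bound.

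Values are given for every member called, up to 4 members per role with the highest mean FPKM, up to 2 per role with the smallest p, every member with an unadjusted p under 0.05 and fixed partners; some genes under this rule are not reported here. From each pathway list, the 2 genes highest in mean CPM are given. The other pathway and marker genes named singly were chosen after their values were seen. The members and lists were chosen with earlier results of these data known. Gene positions are from GENCODE M21 and start regions from RefSeq. Replicate numbers were shared by the groups but not shown to pair libraries: replicate differences correlated across genes at r = -0.073 (16301 genes).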

Additional observations from a re-analysis of the deposited data

How the results depend on the processing

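With 2 libraries in each group, 1 library decides many values, and a gene at 0 counts may have been lost in amplification. Called genes in the whole table were 16 in edgeR, 21 with a replicate block, 5 among genes with counts in all 4 libraries, 61 in DESeq2's Wald test and 0 in each of the 3 limma fits on FPKM. Leaving out a library gave 1 to 7601 calls, the latter (45.2% of genes) without GFP-positive replicate 2. The same omission called 12 of the 38 genes, 9 of them higher and at 0 in the other GFP-positive library, and 3 lower (Itgb2, Itgb7 and Itgb5, adjusted p 0.0298, 0.0263 and 0.0472 in edgeR). Other omissions and all other alternatives called 0. The lone library is then assumed to vary like the other group.

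Median log2 changes moved under the replicate block (collagens 4.30, leukocyte integrins 2.45, beside 3.92 for all genes), which shares a number and no stated pairing. Leukocyte integrins were at -3.81 among genes with counts in all 4 libraries, where no laminin or epithelial integrin was left. Laminins were at 0.22 in limma on FPKM with a pseudocount of 1, and at 0.26 without a filter. Over omissions, medians ran from 0.13 to 9.89 for collagens, -3.00 to 10.28 for laminins, -2.92 to 9.74 for leukocyte integrins and -3.45 to 12.19 for epithelial integrins. Without GFP-positive replicate 1, 19 genes in place of 4 were lower in both GFP-negative libraries by CPM, and 7 in both cases were higher. This alternative was added after seeing the data, and by FPKM not all of the 19 were lower.

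Direction was lost for Col8a1 with the block (-0.51) and for Itgb1 with DESeq2 size factors (0.17), in the limma fits (0.077, 0.033 and 0.077), among genes with counts in all 4 libraries (0.10) and in DESeq2's Wald test (0.20). Col11a1 was at 0.000604, 0.00183 and 0.000604 in the limma fits. Over omissions, Itgb1 ran from -2.56 to 1.33, Col8a1 from -7.04 to 5.98, Col11a1 from -10.24 to 9.89, Col4a1 from -0.40 to 11.57, Col4a2 from -0.50 to 11.01, Col3a1 from -1.08 to 5.53, Col7a1 from -8.79 to 6.29, Itgb4 from -9.47 to 6.15, Lama5 from -6.74 to 10.39, Lama4 from -9.56 to 8.27 and Lamb3 from -0.74 to 11.98. The cause was not tested. Itgb2, Itgb5 and Itgam kept their direction in 12 of 12 alternatives. Other genes were fitted in fewer alternatives, and several of those also kept their direction in each. These were Itgb7, Itga6, Itgb8, Itga2b, Col22a1 and Lamc1 (11 of 11), Col1a2, Col13a1 and Lamb2 (9 of 9) and Col4a3 (8 of 8). All of these except Itgb7 were higher in the GFP-negative pair by the fitted change. Itgb8, Col22a1 and Col13a1 had no count in the GFP-positive pair, so no alternative could reverse them. For genes whose groups do not overlap, such as Itgb2, Itgb5, Itga6 and Lamc1, leaving out a library has little room to reverse the sign. A kept direction is therefore no further support for these genes. The share of all tested genes that keep their direction is not given here.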
